A study of Mus musculus with 4 samples.

Results

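The mitochondrial carriers of the SLC25 family were followed in RNA-seq counts from mouse quadriceps, the large muscle of the thigh. The members are the protein-coding genes whose symbol in the GENCODE M21 annotation (GRCm38) is Slc25a followed by a number, without Slc25a20, the carnitine carrier. They number 46 of the 55573 gene IDs in the count files. The rule uses names only and no measured value. Relatives under other symbols, such as the uncoupling proteins Ucp1, Ucp2 and Ucp3, are therefore not counted among the members. Of the 46, 45 had a count in at least 1 library and 37 had enough counts to be tested, among 13076 tested genes in all. The other 9 were left out by the filter on low counts and are given as counts.

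Carriers of this family sit in the inner mitochondrial membrane, which is closed to most solutes, and exchange metabolites, nucleotides, cofactors and ions between the cytosol and the matrix. In muscle they are best known for the exchange of ADP for ATP, the import of phosphate and the shuttles that bring reducing power from the cytosol to the respiratory chain. The proteins are made in the cytosol and are inserted into the inner membrane by a translocase built around Timm22. In fat cells and liver, some members also carry citrate and malate for the making of fatty acids.

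The knockout group has 2 libraries from 7-week-old mice of the strain B6.129S4-Vdrtm1Mbd/J, which carry a germline disruption of Vdr, the gene of the vitamin D receptor, in every tissue. The WT group has 2 libraries from C57BL/6J mice of the same age. Both groups received ordinary chow, and the series title asks about the choice of fuel in muscle. Mice without the receptor are known to develop low blood calcium after weaning on such chow, and blood values are not analysed here. The labels number the libraries 1 and 2 and do not say that they came from separate animals, so the p-values below rest on a spread that may be technical. Vdr itself had 5 and 1 counts in the knockout and 5 and 0 counts in WT, too few to check the labels.

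Total counts were 21.34 M and 11.21 M in knockout replicates 1 and 2 and 10.79 M and 13.03 M in WT replicates 1 and 2. Markers of muscle fibres were high in all 4 libraries, with summed levels of 60464 and 59592 CPM in the knockout and 64365 and 59012 CPM in WT, and none of the 8 was called. Sex-linked genes put the groups at opposite sex. Xist, which silences an X chromosome in females, had 0 and 3 counts in the knockout against 1929 and 2778 in WT. Ddx3y, a Y-linked gene, had 1594 and 739 counts in the knockout against 50 and 0 in WT, so WT replicate 1 held some Y-linked reads. Markers of white fat were higher in the knockout, with summed levels of 4142 and 3633 CPM against 968 and 1157 CPM in WT, and 7 of 8 were called higher. None of these 8 markers was at 0 in any library. Genotype, the strain named above, sex and white fat RNA thus differed between the groups together and cannot be told apart here. In bulk tissue more or fewer cells of a type and more or less RNA per cell cannot be told apart either.

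Levels are given below as CPM, which are read counts per 1e6 counts of tested genes after TMM scaling. Where genes are compared with each other, levels are CPM per kb of exon. Exon length is the union of the exons of all annotated transcripts of a gene, whether or not muscle uses them. Fold changes are log2 values of the knockout over WT ± SE. Calls are those of edgeR's quasi-likelihood F test at an adjusted p below 0.05 (Benjamini-Hochberg, over all 13076 tested genes). Intervals are 95% intervals of the log2 fold change.

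Of the 37 tested members, 2 were higher in knockout muscle and none was lower. They were Slc25a10, the dicarboxylate carrier, and Slc25a5, the ADP/ATP carrier of many tissues other than muscle fibres. Over all tested genes 2.47% were called, 1.91% higher and 0.558% lower. The muscle form of the ADP/ATP carrier, Slc25a4, which made up most of the family's RNA, was not called. The 37 log2 fold changes ran from -0.53 to 1.33 with a median of 0.09, against a median of -0.00035 over all tested genes. Of the 37, 22 (59.5%) had a positive log2 fold change, as did 6533 of all 13076 tested genes. The groups did not overlap for 16 members, 11 with both knockout libraries above WT and 5 with both below. Over all tested genes 44.7% did not overlap, 23.0% with the knockout above WT and 21.7% below. At an unadjusted edgeR p below 0.05 stood 6 of the 37, all with a positive log2 fold change, and 14.0% of all tested genes, and DESeq2 called the same number of members, 2.

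**Figure D1:**
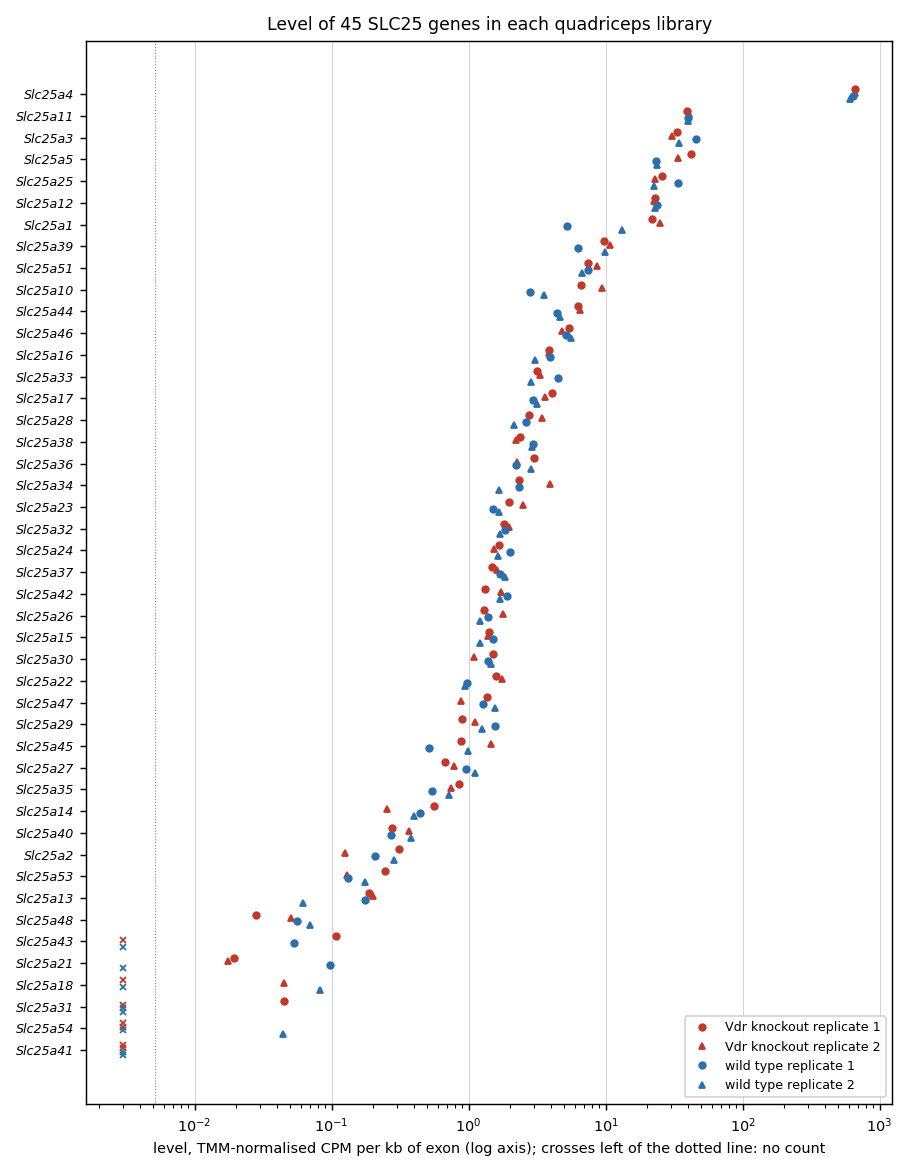
Level of 45 of the 46 SLC25 genes in CPM per kb of exon on a log axis, ordered by the mean over the 4 libraries. Red symbols are knockout libraries and blue symbols WT libraries, circles are replicate 1 and triangles replicate 2, and crosses at the left edge mark libraries without a count. Slc25a4 stands apart at a mean of 645 CPM per kb, and 15 genes lie under 1 CPM per kb.

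The family was dominated by a single gene on the per-length scale. Slc25a4 held 71.3% and 71.4% of the summed CPM per kb of the 46 members in the knockout and 72.5% and 72.5% in WT. The next were Slc25a11, the oxoglutarate and malate carrier (mean 40.0 CPM per kb), Slc25a3, the phosphate carrier (36.0), Slc25a5 (30.6), and Slc25a25, a carrier of ATP-magnesium (26.2). Together these 5 genes made up 86.7% of the summed CPM per kb of the 46 members, and 15 members had a mean under 1 CPM per kb. The order and the shares depend on the division by annotated exon length. In CPM, Slc25a3, Slc25a25 and Slc25a12 each lay above Slc25a11 in every library. The summed level was 935 and 926 CPM per kb in the knockout against 888 and 838 CPM per kb in WT. Without Slc25a4 it was 268 and 265 CPM per kb in the knockout against 244 and 231 CPM per kb in WT. On this scale both knockout libraries lay above WT for either sum. The summed CPM, not divided by length, overlapped between the groups, with 2674 and 2638 CPM in the knockout against 2650 and 2431 CPM in WT. Slc25a4 alone had 1569 and 1557 CPM in the knockout and 1515 and 1429 CPM in WT, a smaller share than per length. None of these sums was tested.

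Slc25a10 exchanges malate or succinate for phosphate and is known to be abundant in white fat, liver and kidney. The gene (ENSMUSG00000025792) lies on chromosome 11, from 120491840 to 120499187 on the plus strand. It had 22.8 and 32.3 CPM in the knockout libraries, against 9.67 and 12.3 CPM in WT. Both knockout libraries lay above both WT libraries, and the knockout replicate 2 was the highest of the 4. The means were 27.5 ± 6.75 CPM in the knockout and 11.0 ± 1.88 CPM in WT (SD, n = 2 each), a 2.48-fold difference (log2 fold change 1.31 ± 0.20, interval 0.88 to 1.74, edgeR adjusted p = 0.00462). With each library left out in turn, the log2 fold change ran from 1.05 to 1.54. White fat markers were higher in the same libraries with a median log2 fold change of 1.83. Of 5 liver markers 2 were tested, and Cyp2e1 was called higher, with 439 and 268 CPM in the knockout against 77.6 and 90.4 CPM in WT (2.07 ± 0.23, edgeR adjusted p = 0.00372). The liver markers Alb, Apoa1, Ttr and Serpina1a were under 2 CPM in all 4 libraries. The part of fat and liver markers in the result was not tested.

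Slc25a5 exchanges ADP for ATP in growing cells and in tissues such as fat, where Slc25a4 is scarce. The gene (ENSMUSG00000016319) lies on chromosome X, from 36795651 to 36798807 on the plus strand. It had 69.0 and 55.7 CPM in the knockout libraries, against 38.3 and 38.9 CPM in WT. The WT libraries lay within 1 CPM of each other and both knockout libraries lay above them. The means were 62.3 ± 9.40 CPM in the knockout and 38.6 ± 0.406 CPM in WT (SD, n = 2 each), a 1.62-fold difference (log2 fold change 0.69 ± 0.14, interval 0.40 to 0.99, edgeR adjusted p = 0.0202). Knockout replicate 1 was the higher knockout library, and without it the log2 fold change was 0.53 and the call was lost. That fit holds only 1 knockout library, so the spread within the knockout cannot enter. Slc25a5 is X-linked and the groups were of opposite sex. Genotype and sex cannot be told apart for it, nor for any other gene here. The summed white fat markers were higher in the same knockout libraries here too, and their part was not tested.

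The 250 bases before the RefSeq start of the genes that were called are shown because they are the stretch where promoter motifs were searched. Both were read from the RefSeq promoter table of build GRCm38.p6, at chr11:120491587-120491836 (plus strand) for Slc25a10 and chrX:36795347-36795596 (plus strand) for Slc25a5. RefSeq places the start of both genes upstream of the GENCODE start given above, and the windows end at the RefSeq start. Capitals mark a match to the GC box, GGGCGG on either strand.
Slc25a10: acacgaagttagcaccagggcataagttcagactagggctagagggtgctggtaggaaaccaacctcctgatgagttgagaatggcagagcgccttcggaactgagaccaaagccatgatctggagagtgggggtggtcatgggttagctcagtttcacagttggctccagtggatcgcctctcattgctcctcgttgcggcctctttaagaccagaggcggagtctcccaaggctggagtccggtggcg
Slc25a5: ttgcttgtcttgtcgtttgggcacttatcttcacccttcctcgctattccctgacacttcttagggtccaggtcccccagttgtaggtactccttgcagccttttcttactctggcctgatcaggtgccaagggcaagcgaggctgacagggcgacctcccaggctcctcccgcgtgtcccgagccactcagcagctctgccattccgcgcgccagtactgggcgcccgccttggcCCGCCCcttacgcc

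The window of Slc25a5 held 1 such match, close to its 3′ end, and the window of Slc25a10 held none. Of the 46 members 35 were matched to a promoter, 1 per gene, the first listed. A GC box was found in 65.7% of these 35 windows, against 32.9% of 27025 promoters of the same length. The 27025 were taken without a filter on gene type, while the members are protein-coding by rule. The median content of G and C bases was 58.8% in the members and 52.0% in all, so base composition differed too. The CCAAT box, CCAAT on either strand, was found in 45.7% of the member windows and in 34.5% of all. The NRF1 motif, GCGCA and GCGC with 1 base of any kind between them, belongs to a factor known to drive genes of mitochondria. It was found for Slc25a3 and Slc25a31 (5.71% of the members, 3.86% of all). The letters CAAGGTCA of the estrogen-related receptors (1.31% of all promoters) and CCGGAAGT of GABP (2.93%) were in none of the 35 windows. The same holds for the direct repeat of PPAR receptors, AGGTCA in 2 copies with 1 base between them (0.037% of all promoters). It also holds for a direct repeat that the vitamin D receptor can bind, AGGTCA in 2 copies with 3 bases between them (0.0074%). All motifs were searched on both strands, and a missing match says only that these letters are not in the window.

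A further 3 members are set beside the called ones because they had the next smallest p or the largest log2 fold change. Slc25a22, a carrier that brings glutamate into the matrix, had 9.46 and 10.6 CPM in the knockout against 5.88 and 5.62 CPM in WT. Its groups did not overlap, and its adjusted p lay just above the threshold (log2 fold change 0.80 ± 0.19, adjusted p = 0.0506). Slc25a44, a carrier of branched-chain amino acids known from brown fat, had 22.6 and 23.2 CPM in the knockout against 15.8 and 16.5 CPM in WT (0.50 ± 0.14, adjusted p = 0.0983). Slc25a1, the citrate carrier, was chosen for description after its values were seen.

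Slc25a1 passes citrate to the cytosol, where it feeds the synthesis of fatty acids. It had 47.4 and 54.0 CPM in the knockout libraries, against 11.3 and 28.6 CPM in WT replicates 1 and 2. Both knockout libraries were above WT, while the WT libraries lay far from each other. Its log2 fold change of 1.33 ± 0.55 was the largest of the 37 and was not called (interval -0.57 to 3.23, adjusted p = 0.489). Without WT replicate 1 it was 0.83 and without WT replicate 2 it was 2.16. Each of those fits holds only 1 WT library, so the spread within WT cannot enter. With all 4 libraries kept, the adjusted p of Slc25a1 ran from 0.0976 to 0.815 over the alternatives. Acly, the enzyme that splits the exported citrate, showed the same order of libraries, with 103 and 157 CPM in the knockout and 37.6 and 85.2 CPM in WT. Of the 6 brown fat markers, 4 were lower in WT replicate 1 than in WT replicate 2 and 2 were higher. Ucp1 had 12.1 and 14.6 CPM in the knockout against 1.52 and 34.0 CPM in WT, while Cox8b had 298 and 369 CPM in the knockout against 358 and 308 CPM in WT. Cidea had 34.9 and 32.1 CPM in the knockout against 3.32 and 15.6 CPM in WT. Both knockout libraries lay above WT for Cidea and Otop1, while the groups overlapped for Ucp1, Elovl3, Ppargc1b and Cox8b. The summed level of the list, most of it Cox8b, was 354 and 428 CPM in the knockout against 371 and 366 CPM in WT. None of the 5 tested genes of the list was called. The part of these cells in the values of Slc25a1 was not tested.

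**Figure D2:**
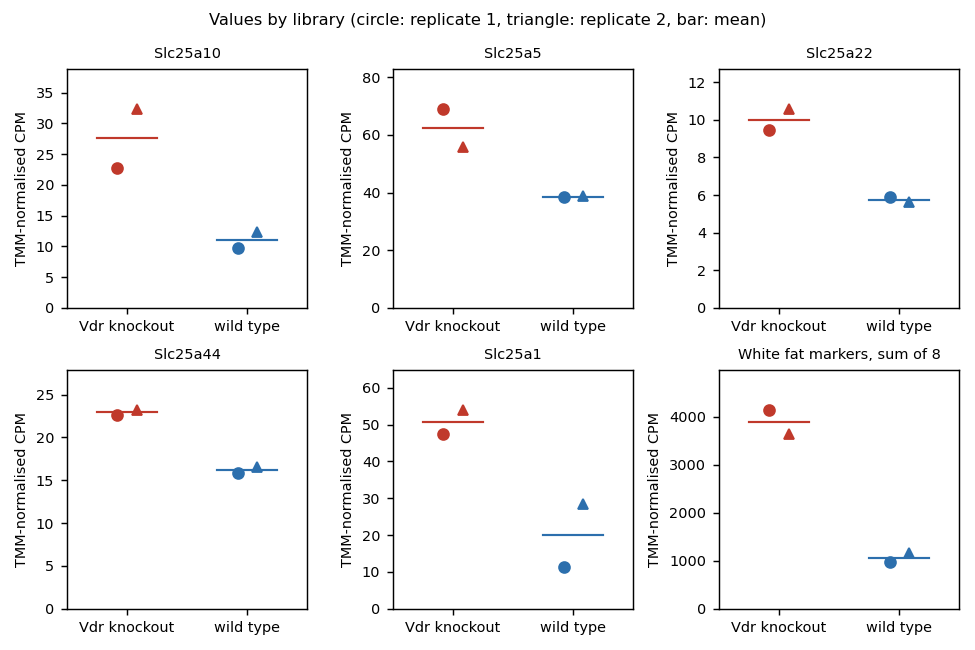
CPM in each library for the 2 called members, for Slc25a22, Slc25a44 and Slc25a1, and for the sum of 8 white fat markers. Each panel starts at 0, circles are replicate 1, triangles replicate 2 and bars the mean of a group. Both knockout libraries lie above both WT libraries in all 6 panels, and the WT libraries lie far apart for Slc25a1.

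Among the carriers that supply ATP, the muscle form of the ADP/ATP carrier, Slc25a4, and the phosphate carrier, Slc25a3, were not called. Slc25a4 (chromosome 8, 46206797 to 46211284) had 1569 and 1557 CPM in the knockout against 1515 and 1429 CPM in WT. The knockout libraries lay slightly above WT, with a log2 fold change of 0.09 ± 0.13 whose interval of -0.20 to 0.38 leaves room for a change of either sign. Slc25a3, which brings in the phosphate for ATP synthesis, had 185 and 170 CPM in the knockout against 255 and 190 CPM in WT (-0.32 ± 0.16, adjusted p = 0.391). Slc25a31, the ADP/ATP carrier of male germ cells, had 2 and 0 counts in the knockout against 0 and 0 in WT, and the 4 germ cell markers Prm1, Prm2, Tnp1 and Acrv1 had no count in any library.

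The ADP/ATP carriers Slc25a4 and Slc25a5 are close relatives, so the sequences by which reads can be told apart are shown. Their longest coding sequences in GENCODE M21 are 897 bases each and were identical at 77.5% of the bases, with a longest identical run of 20. The 90 coding bases around that run (bases 286 to 375 of each, counted from the start codon) differ at 19 bases, printed in capitals.
Slc25a4: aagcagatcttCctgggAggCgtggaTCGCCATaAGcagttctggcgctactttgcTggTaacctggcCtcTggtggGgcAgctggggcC
Slc25a5: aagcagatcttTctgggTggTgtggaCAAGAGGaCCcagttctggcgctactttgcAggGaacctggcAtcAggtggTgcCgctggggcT

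On the per-length scale the ratio of Slc25a4 to Slc25a5 was 15.9 and 19.6 in the knockout against 27.7 and 25.7 in WT. Both knockout libraries had the lower ratio, and the difference on the log2 scale was -0.60. This ratio holds the called difference of Slc25a5 and is no separate result. The annotated pseudogene Slc25a5-ps had 0 and 0 counts in the knockout and 0 and 1 in WT. The sources used here do not say how the authors counted reads with several matches in the genome, so processed copies of Slc25a5 may take reads from it.

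In 3 other pairs of related genes 1 member was far above its relative in all 4 libraries. Slc25a12, the aspartate and glutamate carrier of the malate-aspartate shuttle in muscle and brain, had 3560 and 1959 counts in the knockout and 1843 and 2159 in WT. Its liver counterpart Slc25a13 had 15 and 9 counts in the knockout and 7 and 3 in WT, so their ratio of 123 and 113 in the knockout and 136 and 372 in WT rests on very few counts. Slc25a25 exceeded its relative Slc25a24, another calcium-regulated carrier of ATP-magnesium, and their ratio overlapped between the groups (Slc25a24 over Slc25a25 0.065 and 0.068 in the knockout, 0.060 and 0.073 in WT). Slc25a39, which carries glutathione, exceeded its relative Slc25a40 by 34.8 and 29.6 times in the knockout and by 23.3 and 26.0 times in WT.

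Mitoferrins bring iron to the matrix for haem and iron-sulfur clusters. The ratio of Slc25a28, the widely expressed mitoferrin, to Slc25a37, the mitoferrin of red cell precursors, was 1.86 and 2.13 in the knockout against 1.55 and 1.16 in WT. Both knockout libraries lay above WT, with a difference of 0.57 on the log2 scale. For Slc25a28 the levels were 10.4 and 12.9 CPM in the knockout against 9.86 and 8.04 CPM in WT (0.37 ± 0.19, adjusted p = 0.417). Slc25a37 had 8.98 and 9.72 CPM in the knockout against 10.2 and 11.2 CPM in WT (-0.20 ± 0.17, adjusted p = 0.677). Neither was called, while 3 of 4 tested markers of red cells and their precursors were called higher, with summed levels of 525 and 370 CPM in the knockout against 235 and 252 CPM in WT.

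Slc25a16 and Slc25a42, both tied to coenzyme A, had a ratio of 2.94 and 2.23 in the knockout against 2.07 and 1.81 in WT. The pyrimidine nucleotide carriers Slc25a33 and Slc25a36 had a ratio of 1.06 and 1.49 in the knockout against 2.03 and 1.01 in WT, and these overlapped. With 2 libraries a group an exact permutation test cannot give a two-sided p below 0.333, so the ratios are descriptions.

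**Figure D3:**
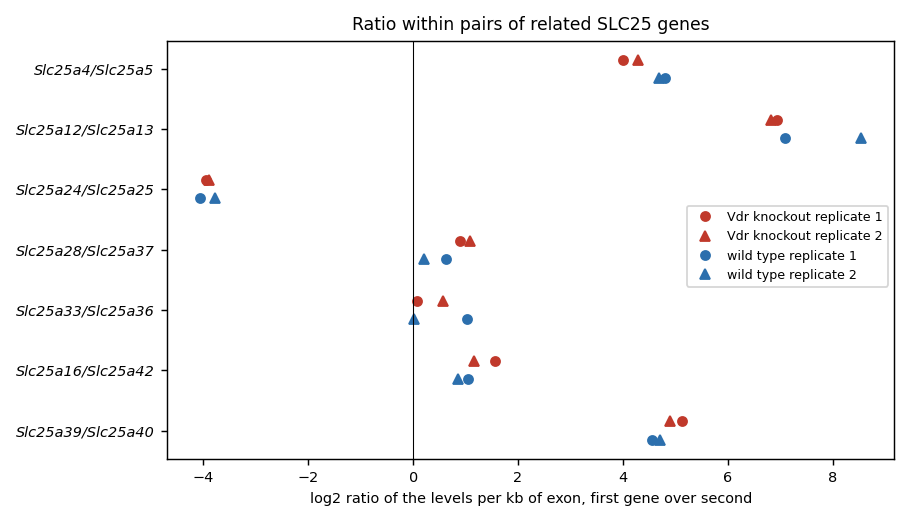
Log2 ratio of the levels per kb of exon within 7 pairs of related SLC25 genes, the first gene over the second, in each library. Red symbols in the upper row of a pair are knockout libraries and blue symbols in the lower row WT libraries. The ratio of Slc25a4 to Slc25a5 is lower in both knockout libraries than in WT, and the ratio of Slc25a24 to Slc25a25 overlaps.

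Of the 3 tested carriers of ATP-magnesium, which load the matrix with adenine nucleotides when calcium rises, none was called. Slc25a23 had 10.5 and 13.1 CPM in the knockout against 7.96 and 8.82 CPM in WT (0.48 ± 0.18, adjusted p = 0.248). Slc25a25 ranged more widely within WT than between the groups, with 203 and 179 CPM in the knockout against 264 and 177 CPM in WT (-0.21 ± 0.18). Slc25a24 had 5.70 and 5.29 CPM in the knockout against 6.92 and 5.62 CPM in WT. Slc25a41, a relative without the calcium-binding part, had no count in any library. A count of 3, the limit that 0 allows, corresponds to 0.143 and 0.256 CPM in the knockout and 0.284 and 0.234 CPM in WT.

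The carriers of the malate-aspartate shuttle were among the most evenly measured members. Slc25a11 had 83.6 and 85.9 CPM in the knockout against 85.2 and 84.4 CPM in WT, with a log2 fold change of -0.00078 ± 0.12 and an interval of -0.27 to 0.26. Slc25a12 had 169 and 167 CPM in the knockout against 175 and 168 CPM in WT, with a log2 fold change of -0.03 ± 0.12 and an interval of -0.30 to 0.24. The groups overlapped for both, and both intervals lay below the log2 fold change of Slc25a10. These intervals rest on a spread that may be technical. Slc25a21, which carries oxoadipate, had 2 and 1 counts in the knockout against 5 and 0 in WT.

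Of 5 tested amino acid carriers, 3 had a positive and 2 a negative log2 fold change. Slc25a38, a glycine carrier needed for haem synthesis, had 6.46 and 6.14 CPM in the knockout against 8.06 and 7.96 CPM in WT (-0.34 ± 0.19, adjusted p = 0.474). Slc25a29, a carrier of basic amino acids, had 2.33 and 2.90 CPM in the knockout against 4.07 and 3.28 CPM in WT (-0.50 ± 0.30, adjusted p = 0.503). Both lay lower in the knockout libraries without overlap, and neither was called. Slc25a15, the ornithine carrier of the urea cycle, had 7.94 and 7.84 CPM in the knockout against 8.43 and 6.79 CPM in WT. Its relative Slc25a2 had 9 and 2 counts in the knockout against 3 and 5 in WT. Slc25a18, the glutamate carrier best known from brain, had 0 and 1 counts in the knockout against 0 and 2 in WT.

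All 11 carriers of cofactors, nucleotides and glutathione were tested and none was called (log2 fold changes from -0.26 to 0.34, adjusted p from 0.423 to 0.969). Slc25a17, the carrier of peroxisomes, had the smallest p, with 11.6 and 10.3 CPM in the knockout against 8.43 and 8.97 CPM in WT. Slc25a39 was the highest of them per length, with 26.6 and 29.8 CPM in the knockout against 17.4 and 27.4 CPM in WT. WT replicate 1 was the lowest of the 4 libraries, and the groups overlapped.

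Slc25a51, which brings in NAD, had 41.1 and 47.7 CPM in the knockout against 41.2 and 37.1 CPM in WT. It was among the better expressed cofactor carriers, and its groups overlapped (0.18 ± 0.13, adjusted p = 0.616). Slc25a26, the carrier of the methyl donor S-adenosylmethionine, had 6.27 and 8.61 CPM in the knockout against 6.63 and 5.77 CPM in WT. Slc25a32, tied to folate and flavin, had 11.0 and 12.0 CPM in the knockout against 11.3 and 10.4 CPM in WT. The groups overlapped for both of these.

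The relatives of the uncoupling proteins were low, none was called and 1 of 3 had a positive log2 fold change. Slc25a27, known from brain, had 2.66 and 3.07 CPM in the knockout against 3.79 and 4.37 CPM in WT (-0.53 ± 0.27, adjusted p = 0.433). This was the most negative log2 fold change of the 37, and the groups did not overlap. Slc25a30 had 6.84 and 5.03 CPM in the knockout against 6.35 and 6.63 CPM in WT. Slc25a46, which sits in the outer membrane and takes part in mitochondrial dynamics, had 29.1 and 26.0 CPM in the knockout against 27.7 and 30.3 CPM in WT (-0.07 ± 0.13).

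Among members without a role group, Slc25a34 had 6.23 and 10.5 CPM in the knockout against 6.25 and 4.45 CPM in WT (0.62 ± 0.28, adjusted p = 0.344), with overlap. Slc25a47, known from liver, had 4.09 and 2.64 CPM in the knockout against 3.79 and 4.68 CPM in WT. The liver markers differed among themselves, since Alb stood at 0.951 and 1.53 CPM in the knockout against 1.90 and 0.858 CPM in WT while Cyp2e1 was called higher. Slc25a45 and Slc25a35 had adjusted p of 0.577 and 0.717. For Slc25a35, 31.3% of the exon bases lie under exons of Rangrf on the opposite strand, whose reads the counting kept apart. Slc25a48 had 2 and 2 counts in the knockout against 2 and 3 in WT.

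**Figure D4:**
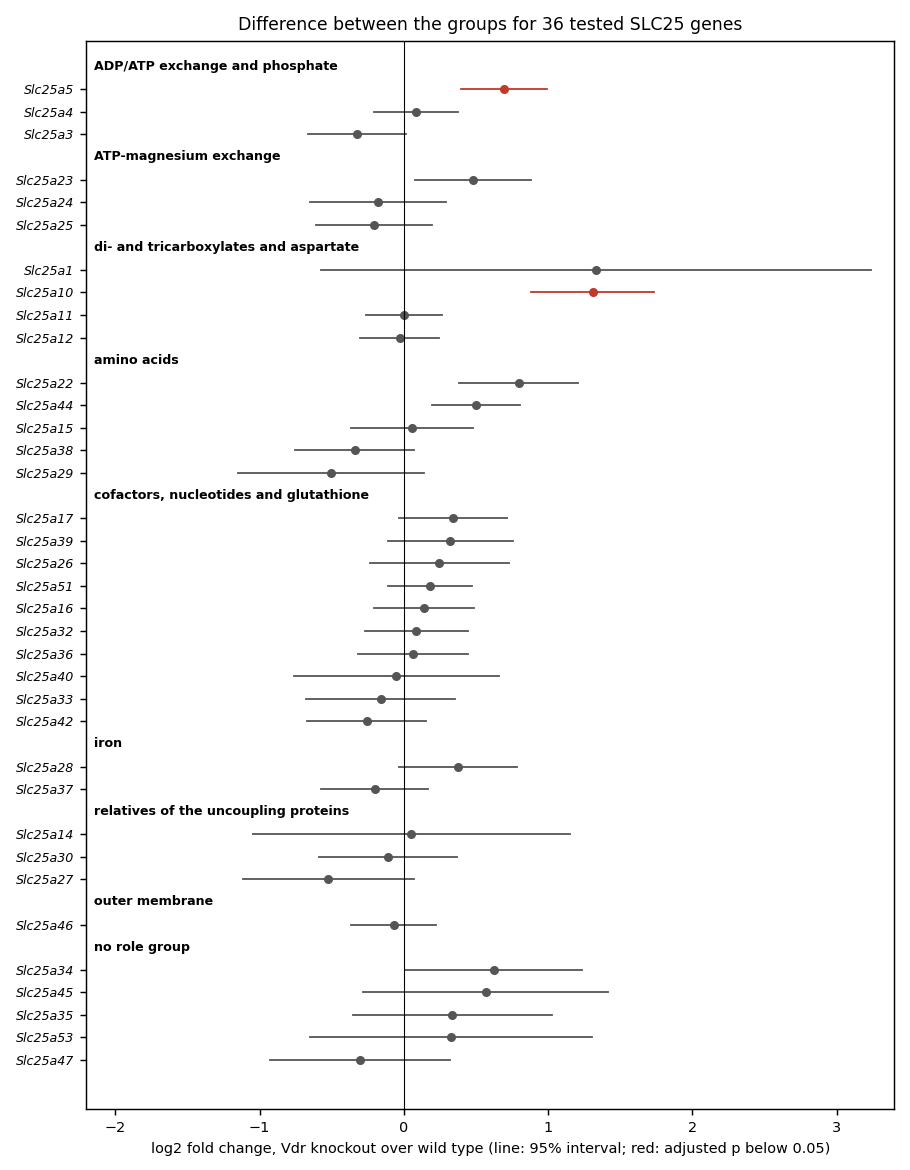
Log2 fold change of the knockout over WT for 36 of the 37 tested SLC25 genes, grouped by what they carry, with 95% intervals as lines. Red marks an adjusted p below 0.05, which Slc25a5 and Slc25a10 reached, and the longest interval is that of Slc25a1.

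Besides Slc25a5, 3 members lie on chromosome X, and none of them was called. Slc25a14 had 28 and 7 counts in the knockout against 11 and 12 in WT, and Slc25a53 had 41 and 12 counts in the knockout against 11 and 18 in WT. Their intervals ran from -1.05 to 1.15 and from -0.65 to 1.30 and so hold the value of Slc25a5. Slc25a43 had 4 and 0 counts in the knockout against 1 and 0 in WT and was not tested.

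Slc25a43 is also the neighbour of Slc25a5, with a gap of 18.4 kb, and stood at a mean of 0.040 CPM per kb against 30.6 for Slc25a5. In all, 4 pairs of members lie within 100 kb of each other. Slc25a54 lies 6.46 kb from Slc25a24 on chromosome 3 and had 0 and 0 counts in the knockout against 0 and 1 in WT, and Slc25a41 lies 2.06 kb from Slc25a23 on chromosome 17. In these 3 pairs 1 gene was at or near 0 and the other was tested. Slc25a29 and Slc25a47 start on opposite strands 162 bases apart on chromosome 12, with means of 1.21 and 1.27 CPM per kb.

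Other genes of mitochondrial transport were read from lists of 3 kinds. Of 16 genes that import carriers and insert them into the inner membrane, 15 were tested and none was called, with log2 fold changes from -0.16 to 0.38 and a median of 0.06. The smallest p there was that of Agk, a subunit of the Timm22 translocase, with 6.56 and 6.65 CPM in the knockout against 5.31 and 5.38 CPM in WT (0.30 ± 0.20, adjusted p = 0.567). Of 27 genes of other transport across the mitochondrial membranes, 3 were called higher and none lower, with a median of -0.02. Of 16 partner enzymes of the carriers, 14 were tested and none was called, with a median of 0.15. Gpd1, the cytosolic enzyme of the glycerol phosphate shuttle, had the smallest p among them, with 486 and 575 CPM in the knockout against 374 and 414 CPM in WT (0.43 ± 0.14, adjusted p = 0.178). Gpd2, the mitochondrial enzyme of that shuttle, went the other way, with 113 and 116 CPM in the knockout against 154 and 137 CPM in WT. Its log2 fold change was -0.35 ± 0.13 (edgeR adjusted p = 0.220).

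The called genes of other transport were Sfxn1, Tspo and Sfxn5. Sfxn1, which carries serine into mitochondria, had 30.7 and 26.5 CPM in the knockout against 10.5 and 11.7 CPM in WT (1.37 ± 0.15, adjusted p = 0.000603). Tspo, a cholesterol-binding protein of the outer membrane, had 47.7 and 50.1 CPM in the knockout against 23.9 and 25.9 CPM in WT (0.97 ± 0.13, adjusted p = 0.00165). Sfxn5, a relative of Sfxn1, had 7.13 and 7.42 CPM in the knockout against 3.51 and 4.06 CPM in WT (0.93 ± 0.22, adjusted p = 0.0476). The groups did not overlap for these 3. The uncoupling protein of muscle, Ucp3, had 40.2 and 55.9 CPM in the knockout against 54.0 and 43.0 CPM in WT, with overlap. White fat markers were higher in the same knockout libraries, and their part in these 3 calls was not tested.

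**Figure D5:**
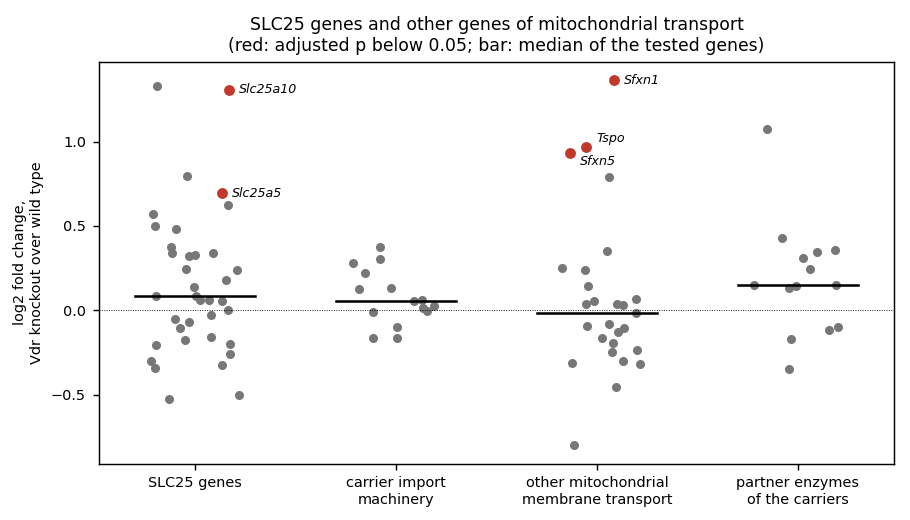
Log2 fold change of the knockout over WT for tested SLC25 genes, carrier import genes, other genes of mitochondrial membrane transport and partner enzymes, 1 point per gene. Red points are called and named, and bars mark the medians, which lie between -0.02 and 0.15.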

How the data were processed

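Total RNA from 4 quadriceps libraries was sequenced. The deposited files hold raw counts of reads per Ensembl gene, 1 column per library, as their values show. The submitters' processing notes name the tools Trimmomatic, STAR and DESeq2 and the build GRCm38 (mm10). The sources used here give neither versions, nor the strand setting, nor the release of the annotation. Counts were present for 119 of 457 genes fully overlapped by opposite-strand exons, against 1 of 712 fully overlapped on their own strand, so the counts kept strands apart. Of 55573 IDs, 55480 matched GENCODE M21, which gave symbols, coordinates and exon lengths.

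Genes were kept by filterByExpr in edgeR 4.0.16 (minimum count 10, minimum total 15), scaled by TMM (factors 0.980 to 1.05) and tested with the robust quasi-likelihood F test in R 4.3.3, genotype being the only term. SEs were derived from the F statistic. The test was checked on simulated data. Replicates differed beyond counting noise (chi-square per degree of freedom 12.5 in the knockout, 8.04 in WT). The members and lists were chosen with earlier results of these data known. The rule named called members, the smallest p and the highest level in each role group, related pairs, X-linked members and members without a count. Other members were named after their values were seen. A single member is counted but not reported by name here. Limits set by 3 counts cover counting error only. DESeq2 1.42.0 was an alternative. Coding sequences were aligned with Biopython 1.88.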

Additional observations from a re-analysis of the deposited data

How the results depend on the processing

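With 2 libraries a group, the precision of low members is limited. Over 12 alternatives, 418 of 441 values of tested members kept their direction and their side of the threshold. Slc25a10 was called in all 12 (adjusted p from 1.94e-12 to 0.0182). Slc25a5 was called in 10 of the 11 that hold it (adjusted p from 9.09e-05 to 0.134). The number of called members was 1 without chromosomes X and Y, where Slc25a5 is left out, and 1 to 3 when each library was left out in turn. Slc25a22 was called without a filter on low counts (0.81, adjusted p = 0.00922), as were 720 genes in all against 323. The cause was not tested. Leaving out each library gave 223 to 415 called genes and a median of the members from 0.042 to 0.136, lowest without WT replicate 2 and highest without WT replicate 1. A fit without robust estimation, added after the data were seen, called 244 genes.

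Signs that turned belonged to uncalled members, and the cause was not tested. Slc25a11 was at 0.00053 with upper-quartile scaling and 0.0084 without the filter. Slc25a14 was at -0.0089 with DESeq2 and -0.056 with the replicate block. With each library left out, values ran from -0.017 to 0.015 (Slc25a11), -0.72 to 0.43 (Slc25a14), -0.097 to 0.22 (Slc25a15), -0.035 to 0.33 (Slc25a16), -0.47 to 0.12 (Slc25a25), -0.37 to 0.078 (Slc25a30), -0.46 to 0.19 (Slc25a33), -0.18 to 0.26 (Slc25a36), -0.27 to 0.22 (Slc25a40), -0.16 to 0.0079 (Slc25a46) and -0.27 to 0.66 (Slc25a53). Same-numbered libraries hardly deviated together (correlation 0.039 across genes). The correlation runs over all tested genes, so it cannot exclude a pairing that affects only part of them. With the replicate block, 314 genes and the same 2 members were called.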
